A study of Homo sapiens with 4 samples.

Results

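The 46 genes described here encode the COPI and COPII vesicle coats, the ARF GTPases, the SNARE fusion proteins with the factors that recycle them, and 2 further membrane traffic proteins. They were taken by gene name from the count table, which has 57014 named rows, and fall into 8 COPI, 10 COPII, 6 ARF, 18 SNARE and 2 SNARE disassembly genes plus VAPA and RAB11FIP1. Each name matched 1 row, and all 46 passed the filter on low counts and were among the 18043 genes tested.

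The cells were 22Rv1, an androgen receptor-positive prostate cancer line grown in RPMI medium with fetal bovine serum. There were 2 CD276 knockout libraries, replicates 1 and 3, named sgCD276, and 2 control libraries, replicates 1 and 3, of wild-type genotype and named sgGFP. CD276 encodes the surface protein B7-H3. The labels state neither whether the knockout was a clone or a pool nor whether replicates came from separate cultures; the p-values then cover only how these libraries vary.

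COPII coats form at exit sites of the endoplasmic reticulum: the GTPase SAR1 recruits the SEC23 and SEC24 inner layer, where SEC24 binds cargo, and SEC13 and SEC31 build the outer cage. COPI is recruited to Golgi membranes by ARF1 as a preassembled complex, the coatomer, and returns escaped proteins and receptors to the endoplasmic reticulum. SNAREs on vesicle and target membranes then zip together to fuse them, and the ATPase NSF with its adaptor alpha-SNAP pulls the spent complexes apart.

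Library totals were 24437926 and 25802417 counts in the knockouts and 23206271 and 20079050 in the controls. CD276 itself was at 23.6 and 26.2 normalized CPM (counts scaled to a common library size of 1e6, with TMM factors) in the knockouts, against 47.4 and 54.4 in the controls, and fell (log2 fold change with its SE -1.03 ± 0.16, adjusted p 0.00561 by edgeR; values in this form below are the same quantities). The 11 luminal prostate markers summed to 3755 to 4230.4 CPM in the knockouts and 3974 to 4035 CPM in the controls. Of 4 endothelial markers PECAM1 and CDH5 were at 0 in all libraries, and 5 leukocyte markers, with CD3E at 0, summed to at most 2.25 CPM in a knockout and 2.07 in a control. The 5 fibroblast markers summed to 36.4 to 46.2 CPM in the knockouts and 52.04 to 57.6 in the controls. Mitochondrial transcripts took 1.46% and 1.78% of the knockout counts and 5.84% and 6.15% of the control counts; the part of that difference in the results below was not tested.

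Of the 46 genes 10 rose in the knockouts and 2 fell. A gene is described as risen or fallen, or as called, where the adjusted p over all genes tested was under 0.05 in edgeR. The 10 that rose are 21.7% of the list, where 9.87% of all genes tested rose, and the 2 that fell are 4.35%, where 12.9% of all genes tested fell. These genes and the further lists below were chosen with earlier results of these data known. Their shares are therefore descriptions and not tests. Those that rose were COPB2, ARCN1, SEC24B, SEC24C, SEC24D, ARF3, VAMP7, STX6, NSF and RAB11FIP1, and those that fell were COPE and STX16. The median log2 fold change of knockout over control was 0.33 for the 46 genes and -0.00 for all genes tested. Both knockouts lay above both controls for 33 of the 46 (71.7%, against 31.8% of all genes tested) and below both for 6 (13.0%, against 34.1%). Among nuclear protein-coding genes, the class all 46 belong to, 12.2% rose and 11.2% fell, with a median of 0.06. Scaled by library totals alone, 2340 genes of all tested were called higher and 1781 lower, against 1780 and 2331 with TMM, and 16 of the 46 were higher and 2 lower. In bulk RNA a change in the make-up of the cells and a change in RNA per cell cannot be told apart.

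**Figure D1:**
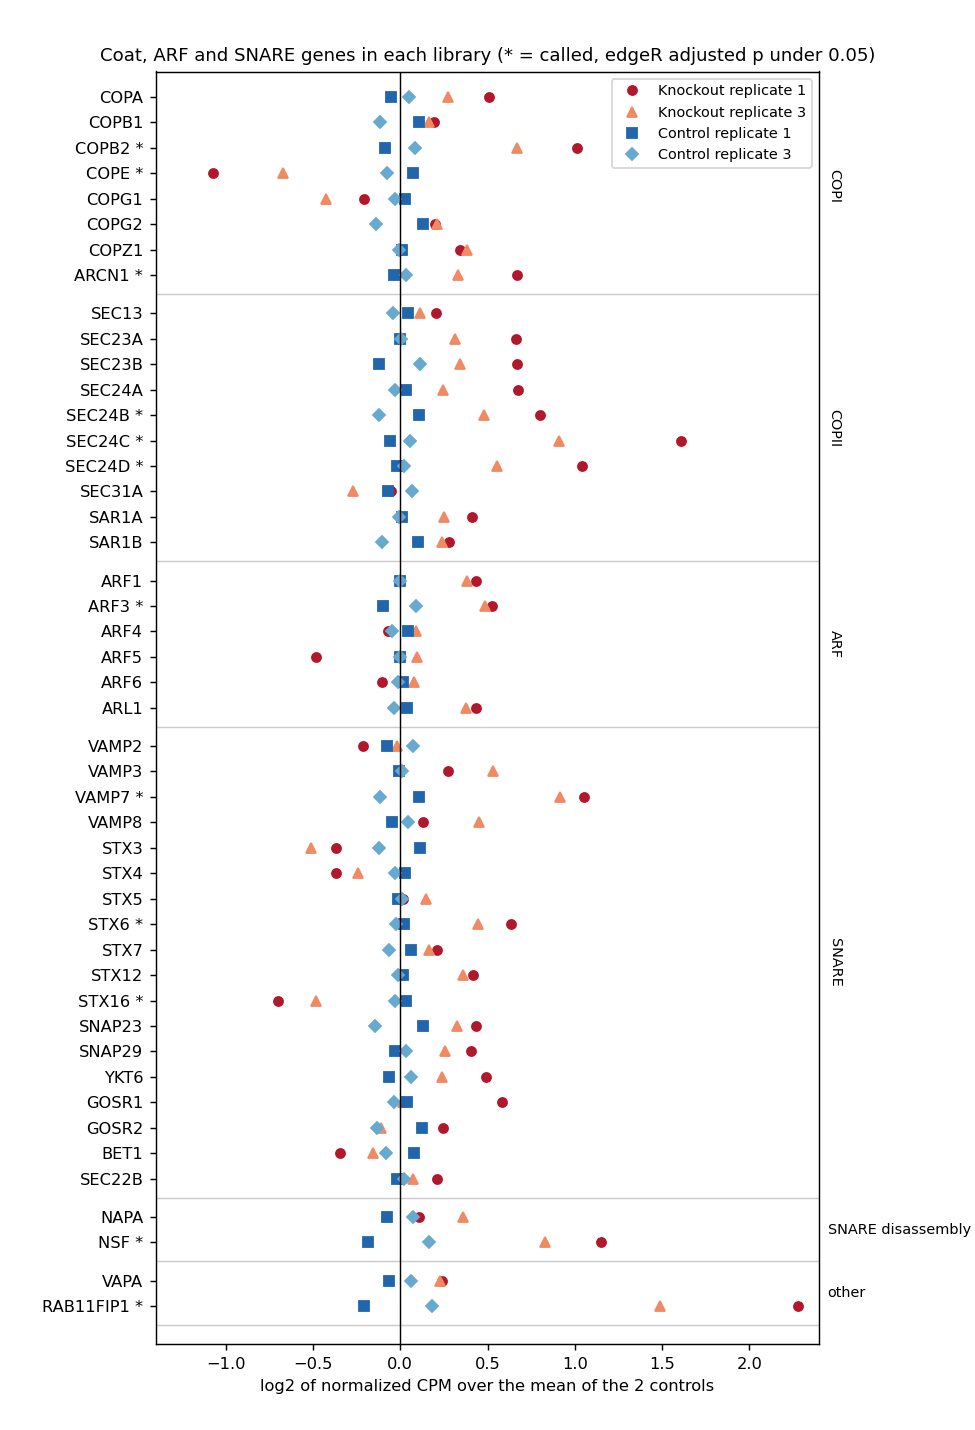
Each row is 1 gene and each symbol 1 library; the horizontal axis is the log2 of its normalized CPM over the mean of the 2 controls, and an asterisk marks the 12 genes called by edgeR. Knockout symbols of 33 genes lie right of both controls, those of 6 genes (COPE, COPG1, STX3, STX4, STX16 and BET1) left of them, and those of 7 genes, ARF4, ARF6 and GOSR2 among them, overlap the controls.

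The calls depended on single libraries. Without control replicate 1 edgeR called RAB11FIP1 alone among the 46, and without control replicate 3 it called RAB11FIP1 and SEC24C, both higher. Without knockout replicate 1, and also without knockout replicate 3, it called more of the 46 in each direction than with all libraries. Both times the 12 genes above were among them. Over all genes tested, too, calls became fewer when a control was left out and more when a knockout was left out. In each of these fits the library left alone in its group was taken to vary as the other group did; all 12 genes kept their direction.

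Levels per length put ARF1 first and RAB11FIP1 last. Divided by the length of the longest GENCODE transcript, ARF1 averaged 363 normalized CPM per kilobase in the knockouts and 274 in the controls. ARF5 followed with 225 in the knockouts and 253 in the controls. COPZ1 had 179 in the knockouts and 139 in the controls, and COPE had 109 in the knockouts and 197 in the controls, so that COPZ1 stood above COPE in the knockouts and below it in the controls. Among the SEC24 adaptors SEC24A had 3.83 in the knockouts and 2.75 in the controls, and SEC24C had 15.9 in the knockouts and 6.43 in the controls. RAB11FIP1 had 1.90 in the knockouts and 0.496 in the controls. The place of STX7 in this order rests on an annotated transcript of 15791 bases.

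Of the 8 COPI genes 2 rose (25%, against 9.87% of all genes tested) and 1 fell (12.5%, near the 12.9% of all genes). Each coatomer holds 1 copy of each subunit. COPB2, the beta-prime subunit that binds dilysine cargo signals, had 144 and 114 normalized CPM in the knockouts, against 67.2 and 75.5 in the controls. Both knockouts were well above both controls, and knockout replicate 1 was the higher of the pair. COPB2 rose, with a log2 fold change of 0.85 ± 0.16, adjusted p 0.0097 by edgeR. It lies at chr3:139355600-139389732 on the minus strand (GRCh38).

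COPE, the epsilon subunit that stabilizes the alpha subunit, went the other way. It had 166 and 219 normalized CPM in the knockouts, against 367 and 331 in the controls, so that even the higher knockout stayed below the lower control. COPE fell, with a log2 fold change of -0.86 ± 0.17, adjusted p 0.0121 by edgeR. The gene lies at chr19:18899514-18919397 on the minus strand and shares 9.15% of its exonic bases with a same-strand RNA that had at most 1 count in any library. Set against COPB2 in the same library, COPE had 1.15 and 1.92 counts per COPB2 count in the knockouts, and 5.45 and 4.38 in the controls. Against ARCN1 the ratio was 0.925 and 1.54 in the knockouts and 3.32 and 2.86 in the controls. The longest transcript of COPE had 62.1% G and C, the highest of the 46, and that of COPB2 37.2%.

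ARCN1, the delta subunit, had 179 and 142 normalized CPM in the knockouts, against 110.4 and 116 in the controls. The groups did not overlap and ARCN1 rose (0.51 ± 0.15, adjusted p 0.0459 by edgeR), but the call sat at the threshold and was lost under 8 of 16 alternatives. COPA, the alpha subunit, was at 302 and 258 normalized CPM in the knockouts and at 206 and 220.2 in the controls and did not pass (0.40 ± 0.15, adjusted p 0.0877 by edgeR). COPZ1, the zeta subunit, did not pass either, although its knockouts at 335 and 345 normalized CPM stood clear of its controls at 266 and 263 (0.36 ± 0.14, adjusted p 0.0958 by edgeR). COPB1, the beta subunit, and COPG2, a gamma subunit, had log2 fold changes of 0.18 and 0.21 and were not called.

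The gamma position of the coatomer is filled by either of a pair of genes. COPG1 had 187 and 161 normalized CPM in the knockouts and 220.2 and 212 in the controls, below both controls but not called (-0.31 ± 0.14, adjusted p 0.143 by edgeR). COPG2 took 13.8% and 15.7% of the counts of the pair in the knockouts, against 11.4% and 9.996% in the controls. That share was higher in both knockouts, with an exact two-sided permutation p of 0.33 for the ratio, the smallest that 2 against 2 libraries can give; 23 such ratios were computed, and none could pass. Summed over the 8 COPI genes, the level was 1474 and 1396 normalized CPM in the knockouts and 1387 and 1347 in the controls, a ratio of 1.05. Without COPZ1, the most abundant of the 8 in the knockouts, the ratio was 0.993.

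**Figure D2:**
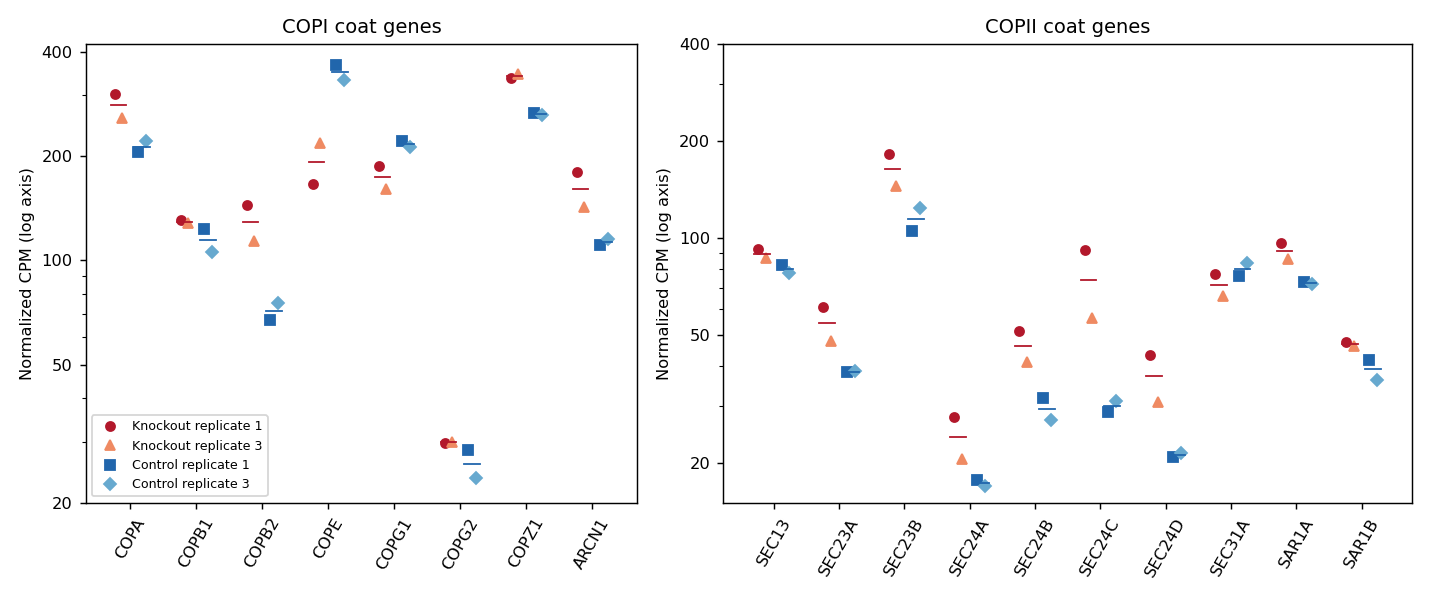
Normalized CPM (log axis) of each COPI gene (left) and COPII gene (right) in the 4 libraries, with a line at each group's mean of 2 libraries. COPE has its knockouts (166 and 219) below its controls (367 and 331), and SEC24C has its knockouts (91.8 and 56.5) above its controls (28.9 and 31.2).

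In the COPII coat 3 of the 4 SEC24 cargo adaptors rose. They were the 3 of 10 COPII genes that passed as higher in edgeR (30%, against 9.87% of all genes tested). In the same fit 0 of the 10 passed as lower, where 12.9% of all genes tested fell. The median log2 fold change of the 10 was 0.49. Unadjusted p-values under 0.05 in edgeR were found for 7 higher and 0 lower genes. The share of all genes at that looser threshold is not given here. DESeq2 called 5 of the 10 higher and limma voom 3, and neither called any lower (0). Over all genes DESeq2 called 1883 higher and 2142 lower, and limma voom 1654 higher and 2344 lower. SEC24C had 91.8 and 56.5 normalized CPM in the knockouts, against 28.9 and 31.2 in the controls. Each knockout was above both controls, though knockout replicate 1 was 1.62 times knockout replicate 3. SEC24C rose 2.47-fold (1.30 ± 0.22, adjusted p 0.00728 by edgeR), and without control replicate 1 its adjusted p in edgeR was 0.0568. At chr10:73744384-73772161 on the plus strand, it shares 42.9% of its exonic bases with an opposite-strand gene. That gene had 73 and 96 counts in the knockouts and 57 and 61 in the controls, while SEC24C had 2410 and 1462 in the knockouts and 645 and 604 in the controls.

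SEC24D, the closest relative of SEC24C, had 43.4 and 31.0 normalized CPM in the knockouts, against 20.8 and 21.4 in the controls, and rose (0.82 ± 0.19, adjusted p 0.0198 by edgeR). SEC24B, which pairs with SEC24A as the other branch of the family, had 51.3 and 41.2 normalized CPM in the knockouts, against 31.8 and 27.2 in the controls, and rose too (0.65 ± 0.17, adjusted p 0.0292 by edgeR). No knockout of these genes reached down to a control. SEC24A was at 27.7 and 20.5 normalized CPM in the knockouts and at 17.7 and 16.9 in the controls and did not pass (0.48 ± 0.19, adjusted p 0.102 by edgeR).

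Within the SEC24 family the share of SEC24C was larger in the knockouts. It was 42.8% and 37.9% of the family's counts in the knockouts, against 29.1% and 32.2% in the controls. SEC24A made up 12.9% and 13.8% in the knockouts and 17.8% and 17.5% in the controls, and SEC24B made up 23.96% and 27.6% in the knockouts and 32.1% and 28.1% in the controls. SEC24D had 20.3% and 20.8% in the knockouts and 20.98% and 22.2% in the controls. The log2 ratio of SEC24A to SEC24C was lower in both knockouts, by a mean difference of -0.80 (exact permutation p = 0.33). SEC24A and SEC24B are known to prefer other sorting signals than SEC24C and SEC24D.

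**Figure D3:**
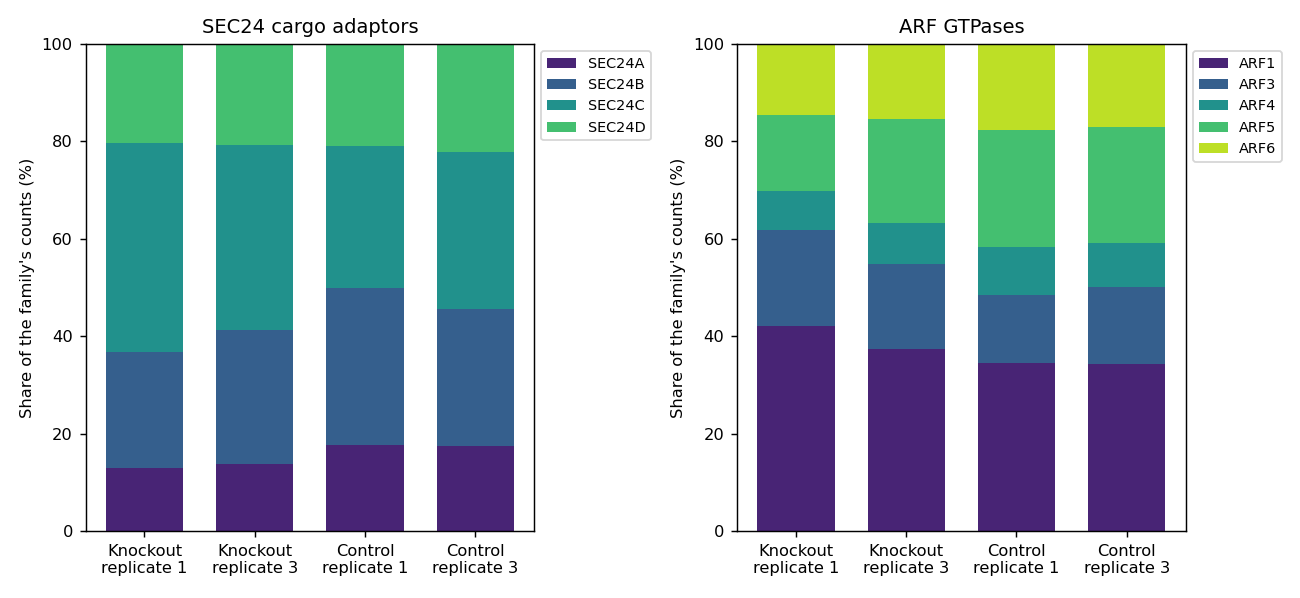
Stacked bars give the share (%) of each gene in the summed counts of the SEC24 family (left) and of ARF1, ARF3, ARF4, ARF5 and ARF6 (right) in each library. The SEC24C segment is taller in the 2 knockouts (42.8% and 37.9%) than in the 2 controls (29.1% and 32.2%), and the ARF5 segment shorter (15.5% and 21.4%, against 24.04% and 23.8%).

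The other COPII genes did not pass. SEC23B, which stimulates SAR1 to hydrolyse GTP, was at 182 and 145 normalized CPM in the knockouts and 105 and 124 in the controls (0.51 ± 0.16, adjusted p 0.0527 by edgeR). SEC23A, with the same function, was at 60.97 and 47.8 normalized CPM in the knockouts and 38.3 and 38.5 in the controls (0.50 ± 0.16, adjusted p 0.0557 by edgeR). Their groups did not overlap, and DESeq2, library totals, no count filter and the replicate block each called both higher. SEC23A had 25.1% and 24.8% of the counts of the pair in the knockouts and 26.7% and 23.8% in the controls, which overlap. The GTPases SAR1A and SAR1B had log2 fold changes of 0.33 and 0.26 and were not called. SAR1A made up 66.98% and 65.2% of that pair in the knockouts and 63.5% and 66.5% in the controls.

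Of the outer cage, SEC13, which also serves the nuclear pore, had a log2 fold change of 0.16 and SEC31A one of -0.16, and neither was called. With offsets for GC content and length SEC31A was at -0.32 (adjusted p 0.0756 by edgeR). SEC31A was the one COPII gene whose groups overlapped, with 76.96 and 66.2 normalized CPM in the knockouts and 76.1 and 83.5 in the controls. Both knockouts lay above both controls for 9 of the 10 (90%, against 31.8% of all genes tested). They lay below both for 0 (against 34.1%). The 10 genes together summed to 769.7 and 627 normalized CPM in the knockouts and 516 and 528 in the controls, a ratio of 1.34. Knockout replicate 1 lay above knockout replicate 3 for 10 of 10 COPII genes, for 32 of all 46 (69.6%) and for 49.8% of all genes tested; the part of that replicate in the COPII values was not tested.

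Promoters of the coat genes often held the letters of stress response elements. The unfolded protein response element, bound by ATF6 and XBP1, was searched as TGACGTGG, and the Golgi apparatus stress response element as ACGTGGC, on both strands of RefSeq promoter windows (GRCh38.p14) of 300 bases, 250 before the start and 50 after it. The letters overlap in TGACGTGGC. Windows were found for 43 of the 46 genes. One or both elements were in 11 of 17 COPI and COPII genes with a window (64.7%), 1 of 5 ARF genes, 2 of 18 SNARE genes (11.1%) and 6.18% of the 11422 tested genes with a window. Taken alone, the first was in 5 of the 17 coat genes and in 1.13% of the tested genes with a window, and the second in 9 of the 17 and in 5.57%. Over all 35116 windows, of which a gene can have several, the shares were 0.729% and 3.22%. A match is a description of the letters and not of binding.

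The stretches shown lie upstream of the start, outside the annotated body of the gene named, and are written along its strand with the element in capitals. Those of SEC24A lie within the annotated SAR1B gene on the minus strand, chr5:134601144-134649271. They come from coat genes that rose (COPB2 and SEC24C) and from coat genes that were not called (SEC24A, COPG1 and SAR1A), to show that the same letters occur in both.
COPB2 at chr3:139389810-139389869, minus strand: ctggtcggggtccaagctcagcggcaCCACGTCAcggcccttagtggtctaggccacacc
COPB2 at chr3:139389733-139389791, minus strand: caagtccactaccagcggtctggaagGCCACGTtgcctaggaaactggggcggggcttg
SEC24C at chr10:73744274-73744332, plus strand: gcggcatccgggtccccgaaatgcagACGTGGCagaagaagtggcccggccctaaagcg
SEC24A at chr5:134648580-134648639, plus strand: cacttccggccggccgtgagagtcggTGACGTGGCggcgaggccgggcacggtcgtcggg
SEC24A at chr5:134648715-134648773, plus strand: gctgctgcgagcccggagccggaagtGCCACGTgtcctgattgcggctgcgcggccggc
COPG1 at chr3:129249572-129249605, plus strand: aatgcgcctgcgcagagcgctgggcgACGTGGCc
SAR1A at chr10:70170683-70170741, minus strand: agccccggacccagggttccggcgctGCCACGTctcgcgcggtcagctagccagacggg

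One or both elements were in 3 of 8 genes that rose (ARCN1, COPB2 and SEC24C), in 0 of the 2 that fell and in 11 of 33 that were not called, among them COPA, COPB1 and SEC23A. The longer endoplasmic reticulum stress element, CCAAT and CCACG with any 9 bases between them, was in the windows of 0 of the 43 genes and of 0.131% of the tested genes (0.0769% of all windows). A cyclic AMP element (TGACGTCA) was in STX12 and in 3.66% of the tested genes (1.85% of all windows). An E-box of the lysosomal CLEAR type (TCACGTGA) was in STX4, STX6 and GOSR2, or 3 of 18 SNARE genes, and in 2.12% of the tested genes (0.98% of all windows).

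ARF GTPases switch on coat assembly, and 1 of the 6 rose (16.7%, against 9.87% of all genes tested). ARF3, a trans-Golgi ARF close in sequence to ARF1, had 343 and 334 normalized CPM in the knockouts, against 223 and 254 in the controls. The knockouts lay close together above both controls and ARF3 rose (0.51 ± 0.15, adjusted p 0.0404 by edgeR). That call was lost under 5 of 16 alternatives, among them the replicate block, upper quartile scaling and a test for more than 1.2-fold. ARF3 shares 13.8% of its exonic bases with same-strand genes. As for a fall, edgeR called 0 of the 6, where 12.9% of all genes tested fell. A list of 6 is too short for 0 to be told apart from that share. Before adjustment, edgeR p-values below 0.05 belonged to 3 higher and 0 lower ARF genes. How many of all genes lie below that looser cut is not given here. DESeq2 called 3 of the 6 higher and limma voom 1, and neither called any lower (0). Totals for all genes were 1883 higher and 2142 lower with DESeq2, and 1654 higher and 2344 lower with limma voom.

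ARF1, the main recruiter of coatomer, was at 743 and 714 normalized CPM in the knockouts and 548 and 549 in the controls, a difference that did not pass (0.41 ± 0.16, adjusted p 0.0954 by edgeR). ARL1, which brings golgins to the trans-Golgi, was above both controls but not called (0.41 ± 0.14, adjusted p 0.0616 by edgeR). ARF4 and ARF6, the second of which works at the plasma membrane, had log2 fold changes of 0.01 and -0.01, and the sign of both turned under other settings. ARF5 had 273 and 408 normalized CPM in the knockouts and 381 and 381 in the controls, so that the knockouts straddled the controls (-0.16 ± 0.20, adjusted p 0.586 by edgeR). Within the family ARF1 and ARF3 took larger shares in both knockouts: ARF1 had 42.2% and 37.4% in the knockouts against 34.6% and 34.3% in the controls, and ARF3 had 19.5% and 17.5% in the knockouts against 14.02% and 15.8% in the controls. The log2 ratio of ARF1 to ARF5 was 1.45 and 0.81 in the knockouts and 0.52 and 0.53 in the controls. Its mean difference was 0.60 (exact permutation p = 0.33, the smallest possible), and that of ARF3 to ARF5 was 0.70.

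Among the 18 SNAREs 2 rose (11.1%, near the 9.87% of all genes tested) and 1 fell (5.56%, against 12.9%), and their median log2 fold change was 0.24. Both knockouts lay above both controls for 11 of the 18 (61.1%, against 31.8% of all genes tested). They lay below both for 4 (22.2%, against 34.1%), and the groups overlapped for VAMP2, GOSR1 and GOSR2. VAMP7, the vesicle SNARE of late endosomes and lysosomes, had 33.1 and 30.2 normalized CPM in the knockouts, against 17.2 and 14.7 in the controls. Both knockouts were close to each other and above the controls, and VAMP7 rose 1.98-fold (0.98 ± 0.17, adjusted p 0.00747 by edgeR). STX6, a SNARE of trans-Golgi and endosome traffic, had 62.8 and 55.01 normalized CPM in the knockouts, against 41.1 and 39.8 in the controls, and rose (0.54 ± 0.14, adjusted p 0.0294 by edgeR).

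STX16, which pairs with STX6 in transport from endosomes to the trans-Golgi, fell. It had 70.03 and 81.5 normalized CPM in the knockouts, against 116 and 112 in the controls, with no overlap. The log2 fold change was -0.59 ± 0.14, adjusted p 0.0207 by edgeR, opposite in sign to that of its partner. STX16 shares 28.4% of its exonic bases with a read-through gene, STX16-NPEPL1, which had 9 and 10 counts in the knockouts and 11 and 21 in the controls.

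The plasma membrane syntaxins STX3 and STX4 were not called. STX3, an apical syntaxin, was at 58.3 and 52.7 normalized CPM in the knockouts and 81.4 and 69.1 in the controls (-0.44 ± 0.15, adjusted p 0.0604 by edgeR). STX4 was at 49.7 and 54.4 normalized CPM in the knockouts and 65.6 and 62.9 in the controls (-0.30 ± 0.14, adjusted p 0.136 by edgeR); with offsets for GC content and length it was at -0.06 (adjusted p 0.736 by edgeR). Their partner SNAP23 lay above both controls, with 27.2 and 25.2 normalized CPM in the knockouts and 22.03 and 18.2 in the controls, and was not called (0.38 ± 0.17, adjusted p 0.138 by edgeR). SNAP23 shares 27.4% of its exonic bases with opposite-strand genes, among them LRRC57, which had 812 and 783 counts in the knockouts and 655 and 558 in the controls. VAMP3 and VAMP8, vesicle SNAREs of recycling and late endosomes, had log2 fold changes of 0.41 and 0.30, and the related VAMP2 had -0.11; none was called. VAMP3 took 34.7% and 35.7% of the counts of the VAMP2 and VAMP3 pair in the knockouts, against 28.5% and 26.7% in the controls (exact permutation p = 0.33).

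YKT6, STX5, SEC22B, GOSR1, GOSR2 and BET1, SNAREs of transport between endoplasmic reticulum and Golgi, were not called. YKT6, a lipid-anchored SNARE, was at 158 and 133 normalized CPM in the knockouts and 107 and 117 in the controls (0.37 ± 0.15, adjusted p 0.0971 by edgeR). STX5, the Golgi syntaxin that receives vesicles from the endoplasmic reticulum, had a log2 fold change of 0.08, SEC22B 0.14, GOSR1 0.33, GOSR2 0.07 and BET1 -0.25. BET1 lay below both controls. GOSR1 had 42.8 and 28.9 normalized CPM in the knockouts and 29.2 and 27.8 in the controls, so that knockout replicate 1 alone stood high. The endosomal SNAREs STX7 and STX12 had 0.19 and 0.39 on the log2 scale, and SNAP29, used in autophagosome fusion, had 0.33. All 18 SNARE genes summed to 958 and 948 normalized CPM in the knockouts and 902 and 894 in the controls.

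NSF, the ATPase that takes SNARE complexes apart, had 37.8 and 30.3 normalized CPM in the knockouts, against 14.96 and 19.1 in the controls. Both knockouts stood clear of the controls and NSF rose (1.00 ± 0.19, adjusted p 0.0107 by edgeR). The pseudogene NSFP1 had at most 2 counts in any library. NAPA, which encodes alpha-SNAP, was at 128 and 152 normalized CPM in the knockouts and 113 and 124 in the controls and was not called (0.24 ± 0.15, adjusted p 0.264 by edgeR). VAPA, a tail-anchored protein that ties the endoplasmic reticulum to other membranes, was at 110.2 and 109 normalized CPM in the knockouts and 89.2 and 97.3 in the controls and was not called (0.24 ± 0.13, adjusted p 0.224 by edgeR).

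RAB11FIP1, which links RAB11 to recycling endosomes, had 493 and 281 counts in the knockouts and 75 and 85 in the controls, or 18.8 and 10.9 normalized CPM in the knockouts and 3.36 and 4.39 in the controls. It had the largest fold change of the 46 (1.94 ± 0.30, adjusted p 0.00618 by edgeR), as earlier results of these data had shown. An opposite-strand gene covers 24.8% of its exonic bases, and that gene had 0 counts in every library. The row named RAB11FIP1P1 had 13 and 6 counts in the knockouts and 43 and 54 in the controls. Of 9 further genes of RAB11 and its effectors, 4 rose and 2 fell (44.4% and 22.2%, against 9.87% and 12.9% of all genes tested). RAB11FIP4 (0.67 ± 0.15, adjusted p 0.0161 by edgeR) and RAB11FIP5 (0.70 ± 0.17, adjusted p 0.0207 by edgeR) rose, and RAB11FIP3 (-0.52 ± 0.13, adjusted p 0.025 by edgeR) fell.

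Of 25 cargo receptors of the early secretory pathway 7 rose (28.0%, against 9.87% of all genes tested) and 0 fell in edgeR (where 12.9% of all genes fell), and the median of the 25 was 0.25 on the log2 scale. With unadjusted p-values under 0.05 there were 11 higher and 1 lower in edgeR. The share of all genes at that looser threshold is not given here. DESeq2 and limma voom each called 7 higher and 0 lower. Over all genes DESeq2 called 1883 higher and 2142 lower, and limma voom 1654 higher and 2344 lower. TMED2, a p24 protein that carries cargo between endoplasmic reticulum and Golgi and binds COPI, had 482 and 398 normalized CPM in the knockouts, against 169.8 and 186 in the controls (1.31 ± 0.16, adjusted p 0.00342 by edgeR). Its partner TMED10 had 232 and 220.0 normalized CPM in the knockouts, against 133 and 137 in the controls (0.74 ± 0.13, adjusted p 0.00883 by edgeR). CNIH1, a cornichon cargo receptor, had 86.3 and 79.3 normalized CPM in the knockouts, against 44.2 and 47.2 in the controls (0.86 ± 0.14, adjusted p 0.00635 by edgeR). The groups of these 3 genes did not overlap.

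Of 9 tested genes in a list drawn up for COPII assembly and exit sites, 1 rose and 2 fell (11.1% and 22.2%, against 9.87% and 12.9% of all genes tested). The list also holds COPZ2, a COPI zeta subunit, and ALG2, a mannosyltransferase, neither of which was called, and 1 name, MIA2, was not matched. SEC31B, the minor SEC31, had 6.82 and 6.69 normalized CPM in the knockouts, against 18.5 and 14.6 in the controls, and fell (-1.30 ± 0.20, adjusted p 0.00635 by edgeR); it shares 18.4% of its exonic bases with other annotation on the same strand. MIA3, which encodes the collagen export receptor TANGO1, had 117 and 93.3 normalized CPM in the knockouts, against 159 and 153 in the controls, and fell (-0.57 ± 0.15, adjusted p 0.0299 by edgeR). SEC23IP, which binds SEC23, rose (0.71 ± 0.21, adjusted p 0.0433 by edgeR).

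Of 27 exchange factors and GTPase-activating proteins of the ARF cycle 6 rose and 3 fell (22.2% and 11.1%, against 9.87% and 12.9% of all genes tested), around a median of 0.16 on the log2 scale. ARFGAP3, a Golgi GAP that acts on ARF1, had 51.98 and 40.5 normalized CPM in the knockouts, against 24.5 and 25.9 in the controls, and rose (0.88 ± 0.17, adjusted p 0.011 by edgeR). ACAP3, of a family of ARF6 GAPs, fell (-0.94 ± 0.14, adjusted p 0.00544 by edgeR), and ASAP2 rose (1.29 ± 0.27, adjusted p 0.0134 by edgeR) with 30.4% of its exonic bases shared with genes on the other strand. ARFRP1, an ARF-like GTPase of the trans-Golgi, was not called (-0.43 ± 0.15, adjusted p 0.0745 by edgeR).

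Of 19 genes in a list of other SNAREs and related proteins 3 rose and 1 fell (15.8% and 5.26%, against 9.87% and 12.9% of all genes tested). STX17, the autophagosomal syntaxin (1.24 ± 0.23, adjusted p 0.00998 by edgeR), VTI1B (0.88 ± 0.14, adjusted p 0.00655 by edgeR) and SEC22C (0.78 ± 0.20, adjusted p 0.0268 by edgeR) were the 3 that rose. Of 14 SNARE partners, 1 rose and 1 fell (7.14% each): VAPB, the relative of VAPA, rose (0.76 ± 0.16, adjusted p 0.0135 by edgeR) and the syntaxin-binding STXBP2 fell (-0.64 ± 0.16, adjusted p 0.0229 by edgeR), while SCFD2 was not called (0.48 ± 0.17, adjusted p 0.0753 by edgeR). Of 41 tethers 9 rose and 4 fell (21.95% and 9.76%), and COG8, on 2 rows of the table, was left out. The exocyst subunits EXOC4 (0.94 ± 0.15, adjusted p 0.0063 by edgeR) and EXOC5 (0.79 ± 0.15, adjusted p 0.0105 by edgeR) and the golgin GCC1 (1.03 ± 0.18, adjusted p 0.00785 by edgeR) rose.

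Of 27 genes of clathrin and its adaptors, the coat of the trans-Golgi and plasma membrane, 5 rose and 4 fell (18.5% and 14.8%, against 9.87% and 12.9% of all genes tested). AP2B1, the beta subunit of the endocytic adaptor, had 167 and 143 normalized CPM in the knockouts, against 59.2 and 65.4 in the controls, and rose (1.32 ± 0.15, adjusted p 0.00287 by edgeR). AP3M1, of the adaptor that sorts to lysosomes, rose (1.06 ± 0.17, adjusted p 0.00674 by edgeR). AP1G2, a gamma subunit of the trans-Golgi adaptor, fell (-1.03 ± 0.15, adjusted p 0.00472 by edgeR), with 50.8% of its exonic bases shared with genes on the other strand.

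When each library was corrected for the GC content and length of transcripts by offsets in the model, the median of the 46 genes was 0.24, beside 0.03 for all genes, and 11 rose and 3 fell. Calls over all genes grew in that fit too, to 2118 higher and 2390 lower from 1780 and 2331. COPE stayed lower at -0.57 on the log2 scale (adjusted p 0.0103 by edgeR) and SEC24C higher at 1.22 (adjusted p 0.00329 by edgeR). ARCN1 was no longer called (0.34, adjusted p 0.0729 by edgeR). ARF1 (0.52, adjusted p 0.0253 by edgeR) and VAMP8 (0.57, adjusted p 0.00899 by edgeR) were then called higher and STX3 (-0.55, adjusted p 0.0159 by edgeR) lower. The median of the 10 COPII genes was 0.34 there.

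**Figure D4:**
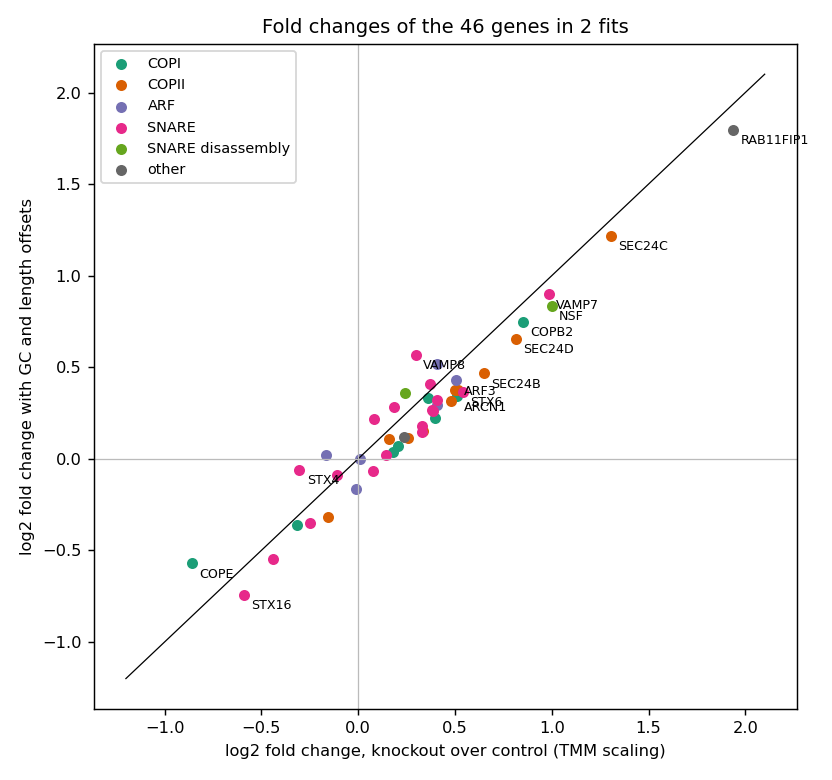
Each point is 1 of the 46 genes, with its log2 fold change under TMM scaling on the horizontal axis and with GC and length offsets on the vertical axis; the line marks equal values. COPE lies at -0.86 without and -0.57 with the offsets, and SEC24C at 1.30 without and 1.22 with them.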

How the data were processed

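Poly(A)-selected TruSeq libraries of 22Rv1 were read in pairs on a NovaSeq, per the labels' protocols. For each of 4 libraries the authors deposited raw counts by gene in a single table. The submitters' processing notes name Trimmomatic 0.36, STAR 2.5.2b, Subread 1.5.2 with featureCounts, and GRCh38. Annotation release, strand setting and the treatment of multi-mapping reads were not given in those sources, so counts of overlapping or copied genes are uncertain. The table had 57500 rows; the 486 without a name, 0.0191% to 0.0290% of a library's counts, were left out.

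Genes were filtered with filterByExpr and scaled by TMM. The test was edgeR 4.0.16 (R 4.3.3), with glmQLFit, robust=TRUE, and glmQLFTest on group alone, leaving 2 residual degrees of freedom; the Benjamini-Hochberg adjustment ran over every gene tested and calls were made under 0.05. The SE shown after ± is the size of the log2 fold change over the square root of F. Positions, exonic overlap, GC content and transcript lengths came from GENCODE 29 on GRCh38, and promoters from RefSeq on GRCh38.p14. After scaling, 1 CPM stood for 19.4 to 26.3 counts, and the smallest count of the 46 genes was 75.

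The members and lists were chosen with earlier results of these data known. The rule for named genes covers all 46 members, CD276 and the 3 genes with the smallest p in each further list; 2 genes that the rule names, and the counts of their list, are not reported here. Replicates were not duplicates: chi-square per degree of freedom was 48.4 between the knockouts and 6.19 between the controls. DESeq2 1.42.0, limma 3.58.1 (voom) and other scalings, filters and fits were run as alternatives.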

Additional observations from a re-analysis of the deposited data

How the results depend on the processing

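Among the 46 genes, 10 rose and 2 fell; RLE scaling, upper quartile scaling, no filter, a minimum of 50 counts, DESeq2, limma voom, robust=FALSE, nuclear protein-coding genes alone and the GC and length offsets gave 8 to 14 higher and 2 or 3 lower. Over all genes of each fit those settings gave 1362 to 2512 higher and 1627 to 2841 lower. Library totals alone gave 16 members higher, with a median of 0.10 (log2) over all genes. An adjusted p under 0.01 left 4 and 0 in edgeR, and testing for more than 1.2-fold left 6 and 1. Without 1 library the counts ran from 1 to 29 higher and from 0 to 5 lower. Over all genes, where 1780 rose and 2331 fell, the threshold of 0.01 gave 361 higher and 675 lower, the 1.2-fold test 979 higher and 1538 lower, and leaving out 1 library 45 to 4795 higher and 267 to 4471 lower.

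The replicate block gave 11 higher and 2 lower members, against 10 and 2 without it. Calls over all genes grew with the block too, to 2062 higher and 2781 lower from 1780 and 2331. The difference between replicates 1 and 3 in the knockouts and that in the controls had a correlation of -0.0152 across genes. With 2 libraries per group this value cannot settle whether the numbers pair the libraries, which the labels do not state.

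Signs turned for log2 fold changes near 0. ARF4 was -0.016 with upper quartile scaling, -0.0272 with a minimum of 50 counts, -0.0265 over protein-coding genes and -0.0018 with the offsets. ARF6 was 0.0081 with RLE scaling, 0.0957 with library totals, 0.0179 with no filter and 0.0081 with DESeq2. With the offsets ARF5 was 0.0184 and GOSR2 -0.0667. Leaving out 1 library, the range was -0.0342 to 0.1009 for ARF4, -0.416 to 0.1084 for ARF5, -0.0359 to 0.0908 for ARF6, -0.1049 to 0.3064 for GOSR2 and -0.2578 to 0.0164 for SEC31A. The cause was not tested.

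Per kilobase, the difference in share between knockouts and controls was -3.47 points for SEC24A, 2.16 for ARF3, -1.06 for ARF6, -1.46 for STX7 and 1.46 for STX12. Without its most abundant gene, the summed level of knockouts over controls was 0.993 for COPI, 1.09 for ARF, 1.03 for SNARE and 2.00 for SNARE disassembly genes.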
